A study of Arabidopsis with 36 samples.

Results

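Genes were sought that were more abundant in roots than in shoots of Arabidopsis thaliana, rose in roots at 28 °C and fell in shoots at 28 °C. For each gene, L was the log2 of the Col-0 mean RPKM (reads scaled by gene length and library total) plus 1 at 28 °C over the Col-0 mean plus 1 at 21 °C. Genes were chosen by these Col-0 means: a gene was taken when L was at least 0.58 in roots and at most -0.58 in shoots, its root mean at 21 °C was at least its shoot mean, and its root mean at 28 °C was at least 5 RPKM. Of the 24532 genes in the table, 1 met these conditions, AT2G36690, a protein-coding gene on chromosome 2 with 2 annotated transcripts. The data therefore describe 1 gene, not a group of genes.

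The libraries came from roots and shoots of chl1-5, hy5-215 and the wild type Col-0, germinated for 4 days at 21 °C and then kept at 28 °C or 21 °C for 5 further days. Each of the 12 groups held 3 libraries, 36 in all, and each root library was made from a pool of about 50 roots. The allele chl1-5 is a deletion of the nitrate transporter and sensor gene NRT1.1, and hy5-215 is a mutant allele of HY5, which encodes a bZIP transcription factor of light and temperature signalling. Both were compared to ask how HY5 and NRT1.1 contribute to gene expression at high ambient temperature.

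Arabidopsis seedlings respond to warmth below the heat stress range by elongating the hypocotyl, petioles and roots, which is known as thermomorphogenesis. The organs respond in part through different genes, and HY5 is known to act in both. The annotation used here gives AT2G36690 neither a gene name nor a function, so no role is stated for it. It was in none of the 22 pathway lists examined, which covered nutrients, hormones, heat, cell wall, suberin and defence. These lists were matched by gene name, so the absence of a gene without a name tells nothing of its role.

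Library totals ran between 51838841 and 89335791 reads. One set of libraries went against its label. NRT1.1 had 0 to 4 reads in the chl1-5 roots, but 5351 to 6485 reads at 28 °C and 3715 to 4311 reads at 21 °C in the shoot libraries labelled chl1-5, against 1924 to 2428 reads at 28 °C and 6192 to 6650 reads at 21 °C in Col-0 shoots. These libraries are called the shoots labelled chl1-5 throughout, and results that rest on them are marked as such. HY5 was at 6.34 to 8.30 RPKM in hy5-215 roots and at 24.1 to 50.3 RPKM in Col-0 roots. In shoots it was at 4.76 to 5.68 RPKM at 28 °C and 5.49 to 5.96 RPKM at 21 °C in hy5-215, against 7.93 to 8.25 RPKM at 28 °C and 4.67 to 4.99 RPKM at 21 °C in Col-0, so at 21 °C it was not lower in the mutant. The organ labels held: 21 of 27 measured root markers were higher in every root library than in any shoot library, and 18 of 19 shoot markers were higher in every shoot library. The root list summed to 414 to 622 RPKM in roots and 99.4 to 128 RPKM in shoots, and the shoot list to 48413 to 69071 RPKM in shoots and 32.6 to 782 RPKM in roots.

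The conditions that chose AT2G36690 used only the Col-0 libraries, so the Col-0 values are a description and carry no test. In Col-0, L was at least 0.58 in roots for 1463 genes and at most -0.58 in shoots for 1165 genes, and 33 genes met both. Of these 33, 32 were more abundant in shoots than in roots at 21 °C, and AT2G36690 was the remaining one. Its L was 0.73 in roots and -0.62 in shoots, and the difference of both, 1.35, was the 209th highest among all genes. Without any 1 of the 12 Col-0 libraries, AT2G36690 still met the conditions in every case but one, since L in shoots was -0.56 without the second Col-0 shoot library at 28 °C.

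**Figure D1:**
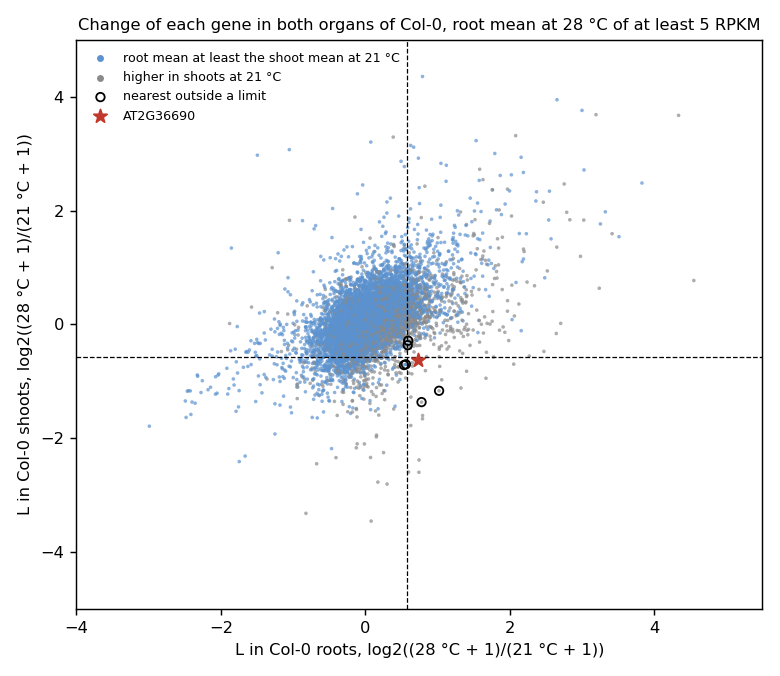
Each point is 1 of the 12333 genes with a Col-0 root mean of at least 5 RPKM at 28 °C, with L in roots on the horizontal axis and L in shoots on the vertical axis, both in log2 units. Dashed lines mark the limits of 0.58 and -0.58. AT2G36690 (star, 0.73 and -0.62) lies in the lower right part, where the other points are of genes more abundant in shoots at 21 °C.

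All conditions but the root limit were met by 443 genes, all but the shoot limit by 591 genes and all but the organ condition by 20 genes. AT1G05575 (L of 0.56 in roots and -0.70 in shoots) and PUB23 (AT2G35930, 0.54 and -0.71), which encodes a U-box ubiquitin ligase, came nearest to the root limit from outside. NSP4 (AT3G16410, 0.59 and -0.36), which encodes a nitrile-specifier protein of glucosinolate breakdown, and AT1G52070 (0.59 and -0.29) came nearest to the shoot limit. ERF104 (AT5G61600, 1.02 and -1.17), an ethylene response factor, missed the organ condition narrowly, with 34.2 RPKM in roots and 34.6 RPKM in shoots at 21 °C. AT3G10930 (0.78 and -1.37) missed it with 3.61 RPKM in roots and 6.32 RPKM in shoots. No gene failed the level condition alone.

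AT2G36690 was a root transcript of moderate level that was higher at 28 °C in every genotype. The chl1-5 roots had 12.9, 16.7 and 13.4 RPKM at 28 °C, against 9.74, 11.5 and 10.15 RPKM at 21 °C. The hy5-215 roots had 13.1, 11.3 and 13.6 RPKM at 28 °C, against 9.17, 8.70 and 7.17 RPKM at 21 °C. Col-0 roots had 15.6, 14.3 and 15.3 RPKM at 28 °C, against 10.2, 6.88 and 9.01 RPKM at 21 °C. In each genotype all 3 libraries at 28 °C were above all 3 at 21 °C. At 28 °C all hy5-215 root libraries were below all those of Col-0, and at 21 °C all were below those of chl1-5, while the other pairs of genotypes overlapped. The choice of the gene favoured high Col-0 root values at 28 °C, so no difference from Col-0 was tested. How many other genes separate so fully in roots was not counted. The group means were 14.3 ± 2.06 RPKM for chl1-5, 12.6 ± 1.21 for hy5-215 and 15.1 ± 0.663 for Col-0 at 28 °C (SD, n = 3 each), and 10.5 ± 0.904 for chl1-5, 8.35 ± 1.05 for hy5-215 and 8.70 ± 1.69 for Col-0 at 21 °C (SD, n = 3 each). These root values rested on 1244 to 3681 reads per library.

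In shoots the same gene was scarce and lower at 28 °C. The shoots labelled chl1-5 had 0.728, 0.741 and 0.718 RPKM at 28 °C, against 2.72, 2.75 and 2.44 RPKM at 21 °C. The hy5-215 shoots had 0.554, 0.476 and 0.554 RPKM at 28 °C, against 1.25, 1.00 and 1.17 RPKM at 21 °C. Col-0 shoots had 1.19, 0.851 and 1.03 RPKM at 28 °C, against 2.26, 2.24 and 1.85 RPKM at 21 °C. Within each genotype, no shoot library at 28 °C overlapped any at 21 °C. At each temperature, all 3 hy5-215 shoot libraries were below all 3 of Col-0 and of the shoots labelled chl1-5. The choice of the gene favoured a gap between temperatures in Col-0 shoots, and no difference from Col-0 was tested. How many other genes separate so fully in shoots was not counted. The shoot values rested on 61 to 490 reads per library. In whole organs, fewer cells of a type and less RNA per cell cannot be told apart.

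**Figure D2:**
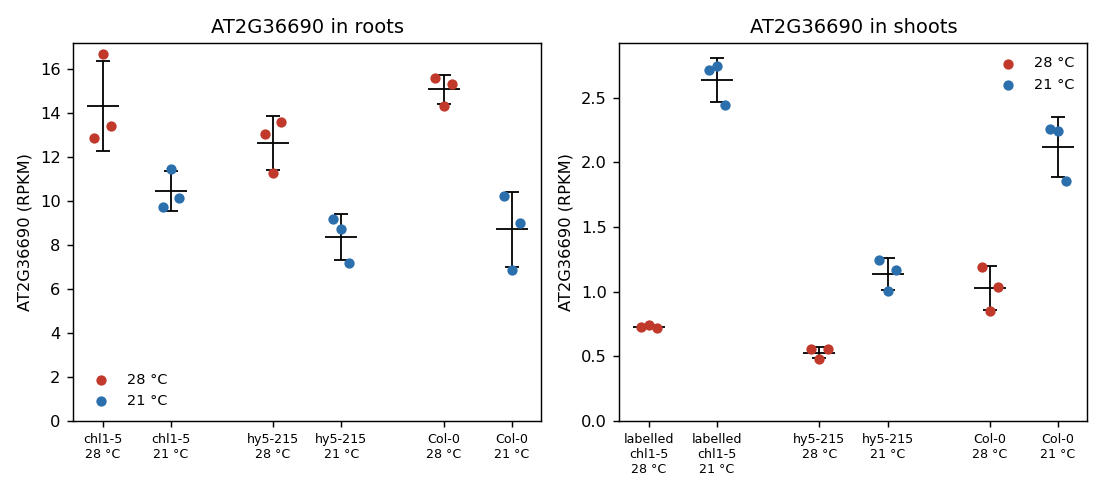
RPKM of AT2G36690 in each of the 36 libraries (points), with the group mean (bar) and SD (whiskers, n = 3), in roots (left panel) and shoots (right panel, with its own scale). In all genotypes the 28 °C points lie above the 21 °C points in roots and below them in shoots.

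Ordered by mean, the 6 root groups came first and the 6 shoot groups last. Neighbouring root groups in this order overlapped in their libraries in every case, including the lowest group at 28 °C, hy5-215, and the highest at 21 °C, chl1-5. The lowest root group, hy5-215 at 21 °C, did not overlap the highest shoot group, labelled chl1-5 at 21 °C. In shoots, hy5-215 at 21 °C (1.14 ± 0.124 RPKM) and Col-0 at 28 °C (1.03 ± 0.171 RPKM; SD, n = 3 each) overlapped, and the other neighbours did not.

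The mutant libraries had no part in choosing the gene, so its response was tested in them, with limma on log2(RPKM + 1) across every gene that averaged 1 RPKM or more in the fitted libraries. In chl1-5 roots AT2G36690 rose by 0.41 at 28 °C (standard error 0.12, 95% interval 0.16 to 0.67, limma adjusted p = 0.00637), which is a ratio of mean RPKM of 1.37. In hy5-215 roots it rose by 0.55 (standard error 0.12, interval 0.29 to 0.80, limma adjusted p = 0.00104), a ratio of 1.51. A rise was common among root genes: 38.3% of the 17742 genes tested rose in chl1-5 roots and 36.5% rose in hy5-215 roots. AT2G36690 stood 2587th from the top by size of the change in chl1-5 roots and 1185th in hy5-215 roots. Its ratio in Col-0 roots, which helped to choose it, was 1.73.

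In the shoots labelled chl1-5, AT2G36690 fell by 1.07 at 28 °C (standard error 0.064, 95% interval -1.21 to -0.93, limma adjusted p = 6.6e-11), and the mean at 28 °C was 0.277 times that at 21 °C. In hy5-215 shoots it fell by 0.48 (standard error 0.064, interval -0.62 to -0.35, limma adjusted p = 2.3e-06), to 0.464 times the mean at 21 °C. In Col-0 shoots this ratio was 0.484. Of the 16817 genes tested in shoots, 28.4% fell in those labelled chl1-5 and 30.4% fell in hy5-215. By size of the fall, AT2G36690 stood 319th in the shoots labelled chl1-5 and 1677th in hy5-215. The pseudocount of 1 RPKM shortens changes of a transcript this low: on the recovered reads (limma voom) the changes were -1.85 in the shoots labelled chl1-5 and -1.09 in hy5-215. AT2G36690 passed the filter of 1 RPKM in shoots only through the groups at 21 °C, where it was higher. Without a filter the changes were the same, with a limma adjusted p of 6.1e-10 in the shoots labelled chl1-5 and 5.8e-06 in hy5-215. In a fit of the hy5-215 shoots alone, with every gene that had a read in them, the change of -0.48 had a limma adjusted p of 9.9e-05; this fit was added after the data were seen.

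AT2G36690 thus passed the test upward in roots and downward in shoots in hy5-215, and likewise in chl1-5 roots and the shoots labelled chl1-5. Among the 15646 genes tested in both organs, 5.91% did so in chl1-5 (with the shoots labelled chl1-5) and 5.79% did so in hy5-215. The filter and the estimate of spread in these fits included the Col-0 libraries. Without a filter, AT2G36690 passed in both organs of hy5-215, and of chl1-5 with those shoots, as well. It did not meet the 4 conditions on the mutants' own means, since L was 0.42 in chl1-5 roots, and 0.54 in roots and -0.49 in shoots of hy5-215.

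The difference between the organs was tested in 1 fit of all 36 libraries. The response to 28 °C was higher in roots than in shoots by 1.03 in hy5-215 (standard error 0.14, 95% interval 0.74 to 1.32, limma adjusted p = 3.5e-07), and by the same 1.03 in a fit, added later, of the hy5-215 libraries alone with no filter (limma adjusted p = 3.9e-05). It was higher by 1.48 in chl1-5 with the shoots labelled so (interval 1.19 to 1.78, limma adjusted p = 4.2e-10). On the recovered reads (limma voom) these differences were 1.69 in hy5-215 (adjusted p = 0.000574) and 2.30 in chl1-5 with the shoots labelled so. The response was higher in roots for 29.5% of the 18173 genes tested in hy5-215 and for 30% in chl1-5 with those shoots. By size of this difference AT2G36690 stood 358th in hy5-215 and 193rd in chl1-5 with those shoots.

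**Figure D3:**
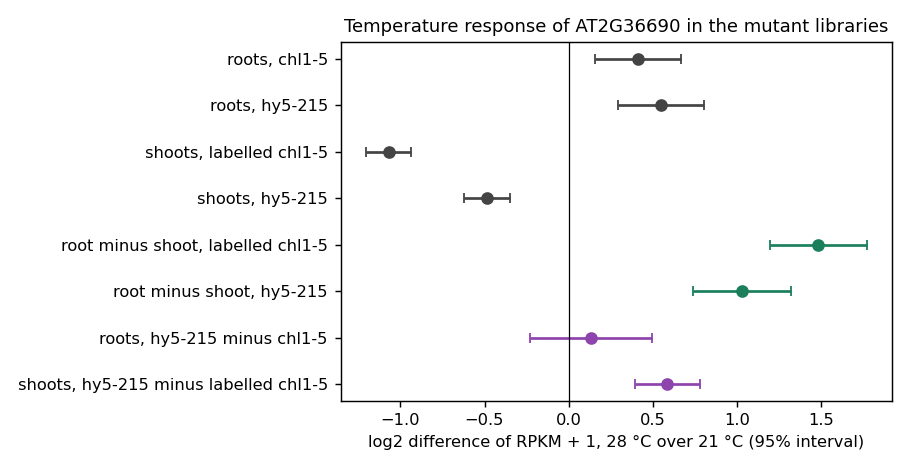
Points give the log2 difference of RPKM + 1 for AT2G36690 with its 95% interval from limma. From the top, they show 28 °C over 21 °C in chl1-5 roots, hy5-215 roots, the shoots labelled chl1-5 and hy5-215 shoots, then the root response minus the shoot response, then the hy5-215 response minus the chl1-5 response (in shoots, those labelled chl1-5). Of the 8 intervals, only that of the difference between the mutants' root responses (0.13) includes 0.

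The mutants were then compared with each other. In roots, the response in hy5-215 minus that in chl1-5 was 0.13 (95% interval -0.23 to 0.49, limma adjusted p = 0.587), which did not pass the test, and the interval holds differences of either sign. Leaving out single libraries moved this value between 0.04 (without hy5-215 replicate 3 at 21 °C) and 0.24 (without chl1-5 replicate 2 at 28 °C), and it passed the test in none of these fits. Of the 17742 genes tested in roots, 2731 were called for a higher response in hy5-215 than in chl1-5, the direction of this value. A lower response was called for 2834 (16%). In shoots, the fall was smaller in hy5-215 than in the shoots labelled chl1-5, by 0.59 (standard error 0.091, interval 0.39 to 0.78, limma adjusted p = 6.0e-05), as was called in this direction for 20.2% of genes. On the RPKM scale the hy5-215 shoots were already lower at 21 °C, at 1.14 ± 0.124 RPKM, against 2.63 ± 0.169 RPKM in the shoots labelled chl1-5 (SD, n = 3 each). This comparison cannot be made without the libraries whose NRT1.1 reads go against their label.

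The preference for roots was present at both temperatures and was larger at 28 °C. For Col-0, the conditions that chose the gene set this in advance. Shoot levels were 4.18% of root levels at 28 °C and 13.6% at 21 °C for hy5-215, 5.09% and 25.2% for chl1-5 with the shoots labelled so, and 6.80% and 24.4% for Col-0. At 21 °C, roots exceeded shoots by 2.12 on the log2(RPKM + 1) scale in hy5-215 (standard error 0.10, limma adjusted p = 1.7e-18) and by 1.65 in chl1-5 roots over the shoots labelled chl1-5 (standard error 0.10, limma adjusted p = 9.3e-16). Such a difference was the rule in this table, since 70.7% of genes in hy5-215 and 70.5% in chl1-5 with the shoots labelled so were called higher in roots, and the median over all genes was 0.60 and 0.59. Scaling the libraries by the median of ratios brought this median to -0.01 in hy5-215 and 0.00 in chl1-5 with the shoots labelled so, and AT2G36690 was then higher in roots by 1.62 in hy5-215 and by 1.08 in chl1-5 over those shoots.

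Transcripts of the other organ moved with temperature as well. The summed RPKM of 6 genes restricted to roots was, in shoots, 0.655% at 28 °C and 1.01% at 21 °C of its root level for hy5-215, 0.122% and 0.605% for the shoots labelled chl1-5, and 0.619% and 0.999% for Col-0, so it was lower at 28 °C in each. In roots, the sum of 155 genes restricted to shoots was 0.145% at 28 °C and 0.0821% at 21 °C of its shoot level for hy5-215, 1.08% and 0.294% for chl1-5 against the shoots labelled so, and 1.34% and 0.413% for Col-0. Both lists were chosen for a share of at most 1% in the other organ of the mutants at 21 °C, so the size of the shares at 21 °C was set by the choice. CASP1, a Casparian strip gene that was on the root marker list and not chosen in this way, had 1.36 to 11.1 RPKM in shoots and 96.2 to 170 RPKM in roots. It is only 1 of 27 measured root markers, and these differed. EXPA7 had 0.0569 to 0.474 RPKM in shoots and 16.9 to 36.4 RPKM in roots. SUC2 was higher in shoots, at 31.8 to 53.0 RPKM against 11.4 to 22.3 RPKM in roots. These ranges span both temperatures and all genotypes, so they do not show a change with temperature. The part of RNA from the other organ in the changes of AT2G36690 was not tested.

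The neighbouring genes that averaged over 1 RPKM did not share the pattern in Col-0. AT2G36680 had an L of -0.03 in roots and 0.27 in shoots, and AT2G36670 had -0.46 and -0.15. Beyond these, PAB7 (AT2G36660, 0.33 and 0.09) averaged under 1 RPKM in all Col-0 groups. On the other side, AT2G36695 (-0.30 and -0.06) and AT2G36710 (-0.33 and -0.05) averaged under 1 RPKM in all Col-0 groups. AT2G36700 had no values. With 1 RPKM added, L can show little of a pattern at such low levels. No annotated gene overlapped AT2G36690, so its reads were not shared with an overlapping partner.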

How the data were processed

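RNA-seq libraries (Illumina NovaSeq 6000) were aligned by the authors with STAR 2.7.0a to TAIR10, and edgeR 3.36.0 is named in their processing notes. The counting tool and annotation release are not given in the sources used here. The authors deposited RPKM for 24532 genes in 36 libraries. Whole reads could be recovered for 100% of the values above 0 (tolerance 0.001 reads), and the length in the RPKM equalled the full gene span, introns included, for 23773 genes, so levels are not per exon length.

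Values were tested as log2(RPKM + 1) with limma 3.58.1 (R 4.3.3; trended variance, 1 mean per group, Benjamini-Hochberg adjustment over all genes tested). Fits held the 18 libraries of an organ, or all 36 for comparisons between organs, and only genes averaging 1 RPKM or more in those libraries. AT2G36690 passed this filter in shoots at a mean of 1.36 RPKM, only through the groups at 21 °C. Calls needed an adjusted p below 0.05. Scripts were tested on simulated data. Genes restricted to an organ had at least 50 RPKM there in the mutants at 21 °C and at most 1% of it in the other organ.

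The conditions, lists and tests were chosen with earlier results of these data known. Named genes were AT2G36690, those nearest outside each limit and its neighbours on the chromosome. The neighbours were chosen after their values were seen. NRT1.1 and HY5 were named to check the labels of the mutants, and single genes of the root marker list as examples. Genes that met the conditions in the mutants were named after their values were seen. Those ranked by correlation with AT2G36690 were named by a rule added then. Replicates are labelled as separate samples, and the main fits did not pair libraries that share a replicate number. Pseudocounts of 0.1 and 0.5, other filters, scalings, limma voom on recovered reads and the omission of single libraries were tried. Gene names came from RefSeq (TAIR10.1), in which 24528 genes were matched. Sequences were not used here.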

Additional observations from a re-analysis of the deposited data

Results flagged for a closer look

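The response of AT2G36690 to 28 °C differed between organs, and in shoots between the mutants, by a test of the difference itself. The root response exceeded the shoot response by 1.48 in chl1-5 with the shoots labelled so (limma adjusted p = 4.2e-10) and by 1.03 in hy5-215 (limma adjusted p = 3.5e-07). The shoot response was higher, that is the fall was smaller, in hy5-215 than in the shoots labelled chl1-5 by 0.586 (limma adjusted p = 6.0e-05). In roots the difference between the mutants was 0.13 and did not pass (limma adjusted p = 0.587). The values of 1.48 and 0.586 rest on the libraries in which NRT1.1 reads go against the label.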

How the results depend on the processing

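Of 260 recomputed values, 245 stayed the same, 6 lost a call, 9 moved and 0 reversed. For a tested difference, the same meant an unchanged direction and side of the threshold. The values also held calls in both organs and counts of genes meeting the conditions, which cannot reverse, and all 9 that moved were such counts. Some settings, such as no filter or the replicate block, leave the size of a change as it was. Asking in addition for a log2 difference above 1 removed the calls in chl1-5 roots (0.41), hy5-215 roots (0.55) and hy5-215 shoots (-0.48). It also removed that of the difference between hy5-215 shoots and the shoots labelled chl1-5 (0.59). AT2G36690 was then called in both organs neither in hy5-215 nor in chl1-5 with the shoots labelled so (0 and 0). Which genes met the 4 conditions depended on the settings: 7 did with a pseudocount of 0.1 RPKM, 2 with 0.5 RPKM and 2 after scaling by the median of ratios, each time with AT2G36690 among them. Leaving out single Col-0 libraries gave 0 to 3 genes, 0 without shoot replicate 2 at 28 °C and 3 without root replicate 1 at 21 °C, where AT1G05575 and PUB23 joined. Without single libraries, the change in chl1-5 roots ran between 0.31 and 0.48, with a limma adjusted p of up to 0.0404. With the replicate block, the changes were 0.41 in chl1-5 roots (limma adjusted p = 0.0102) and 0.55 in hy5-215 roots (limma adjusted p = 0.00206), and no call of AT2G36690 changed. Deviations of same-numbered libraries correlated above 0.1 in 6 of 9 root pairs and 5 of 9 shoot pairs. A filter of 5 RPKM gave no value in shoots, where the gene lies below it. Shoot values of 61 to 490 reads limit the precision there.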

Other observations

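The same 4 conditions on the mutants' own means were met by 11 genes in chl1-5, with the shoots labelled so, and by 3 genes in hy5-215. AT5G14360 was in both sets, with L of 0.62 in roots and -0.62 in shoots in each mutant. Its L in Col-0 roots was 0.48. AT1G05575, which narrowly missed in Col-0, met the conditions in hy5-215 (0.71 and -0.66). The chl1-5 set held PHT1;1, a phosphate transporter (0.82 and -0.74), CRK28, a receptor-like kinase (0.91 and -0.63), and NSP4 (0.67 and -0.95). CDEF1, a cutinase, was in the hy5-215 set (0.74 and -1.07), while its L in Col-0 roots was -1.63. These genes were named after their values were seen, and no test was made of them.

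By a rule added after the values were seen, 15645 genes were ranked by the Pearson correlation of their 12 group means with those of AT2G36690, after the mean of each organ was taken out. The 12 groups included the Col-0 groups that chose AT2G36690, and the shoots labelled chl1-5. How high the first correlations among so many genes would be by chance was not tested. The values are therefore only a description. AT2G40820 (0.938), AT3G20898 (0.935), hemf2 (0.924), AT3G48980 (0.921) and AT3G45900 (0.914) came first. AT2G40820 had L of 0.27 in roots and -0.68 in shoots of Col-0. The changes in Col-0 shoots were smaller for the others. AT3G20898 had 0.51 in roots and -0.22 in shoots, and hemf2 had 0.27 and -0.22. AT3G48980 had 0.11 and -0.35, and AT3G45900 had 0.14 and -0.14.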
